A study of Mus musculus with 6 samples.

Results

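The vacuolar-type proton ATPase (V-ATPase) is a rotary pump that spends ATP to move protons into lysosomes, endosomes, the Golgi and secretory vesicles, and in specialised cells across the plasma membrane. Its cytosolic V1 sector hydrolyses ATP and turns a central stalk, and its membrane-embedded V0 sector carries the protons. Some subunits are made from several genes, and in mouse and human these isoforms differ in the tissues and membranes in which they are used. The 10 genes described here are 7 genes of the V0 sector (Atp6v0a1, Atp6v0a2, Atp6v0b, Atp6v0c, Atp6v0d1, Atp6v0d2 and Atp6v0e) and 3 of the V1 sector (Atp6v1a, Atp6v1b2 and Atp6v1c1). They were chosen by name from the deposited gene table and linked by Ensembl identifier to the count table. All 10 were among its 49671 genes, and all 10 were among the 15197 genes that passed the filter on low counts, which required a level of 0.5 CPM (counts scaled by library size) or more in no fewer than 2 libraries.

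The RNA came from primary pancreatic stellate cells (PSCs), fibroblast-like cells that reside in the pancreas, taken from wild-type mice of the C57BL6/J background and grown on plastic in serum-containing DMEM/Ham F12 medium. Both groups stayed in culture for 120 h. In the first group the sodium bicarbonate content set the extracellular pH of the medium to 6.6 (pHe6.6), and in the second to 7.4 (pHe7.4), so that pHe and bicarbonate content cannot be told apart. Each group has 3 biological replicates (A, B and C), and the labels do not say which animals these came from, so that p-values measure the spread between these libraries. The labels name no transgene or drug for either group, and the ages of the mice are not given in the sources used here.

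The 6 libraries held 28904761 to 38331877 counts, so that 1 count was worth 0.0252 to 0.0339 CPM after scaling by TMM, a correction for RNA composition. Of 14 stellate and fibroblast markers, 12 passed the filter, with a summed level of 37600 to 40600 CPM at pHe6.6 against 38700 to 48800 CPM at pHe7.4. Lrat and Gfap, which mark quiescent stellate cells, did not pass it. The collagen genes Col1a1, Col1a2 and Col3a1 had the highest levels in this sum. By the test given below, 7 of the 12 were higher at pHe6.6, Col1a1 alone was higher at pHe7.4 and 4 did not pass. The share called was 66.7%, against 52.3% of all genes. Their median log2 fold change (pHe7.4 over pHe6.6) was -0.55, so that the sum did not follow the typical marker. Macrophage markers were present too, with 18 of 18 past the filter and a summed level of 690 to 1300 CPM at pHe6.6 against 613 to 922 CPM at pHe7.4. Mesothelial markers stood at 252 to 597 CPM in sum at pHe6.6, lowest in replicate A, and at 1370 to 1520 CPM at pHe7.4. In bulk RNA of this kind, fewer cells of a type and less RNA per cell cannot be told apart.

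The comparison asked which subunit genes differed between PSCs kept at the acidic and at the near-neutral pHe. Of the 10 genes, 6 passed the test, 3 in each direction. Atp6v0a2, Atp6v0d1 and Atp6v0b were higher at pHe7.4, and Atp6v0d2, Atp6v0a1 and Atp6v1a were higher at pHe6.6, while Atp6v0c, Atp6v0e, Atp6v1b2 and Atp6v1c1 did not pass. Genes were called by the quasi-likelihood test of edgeR at an adjusted p (Benjamini-Hochberg, over every gene tested) under 0.05. Among all genes tested 52.3% passed, 25.9% toward pHe7.4 and 26.4% toward pHe6.6, so that the share of subunit genes past the test, 60%, was near that of the transcriptome. Only Atp6v0d2 also exceeded an absolute log2 fold change of 0.58, against 29.8% of all genes. The groups did not overlap in 6 of the 10 genes (60%), against 63.2% of all genes tested, so that groups without overlap were common in these data. Log2 fold changes are coded with pHe7.4 in the numerator, and a negative value stands for a higher level at pHe6.6, and CPM values are TMM-scaled. Their median was -0.03 over the 10 genes and 0.011 over all genes tested. The summed level of the 10 genes ran from 721 to 745 CPM at pHe6.6 and from 714 to 755 CPM at pHe7.4, and the groups overlapped.

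**Figure D1:**
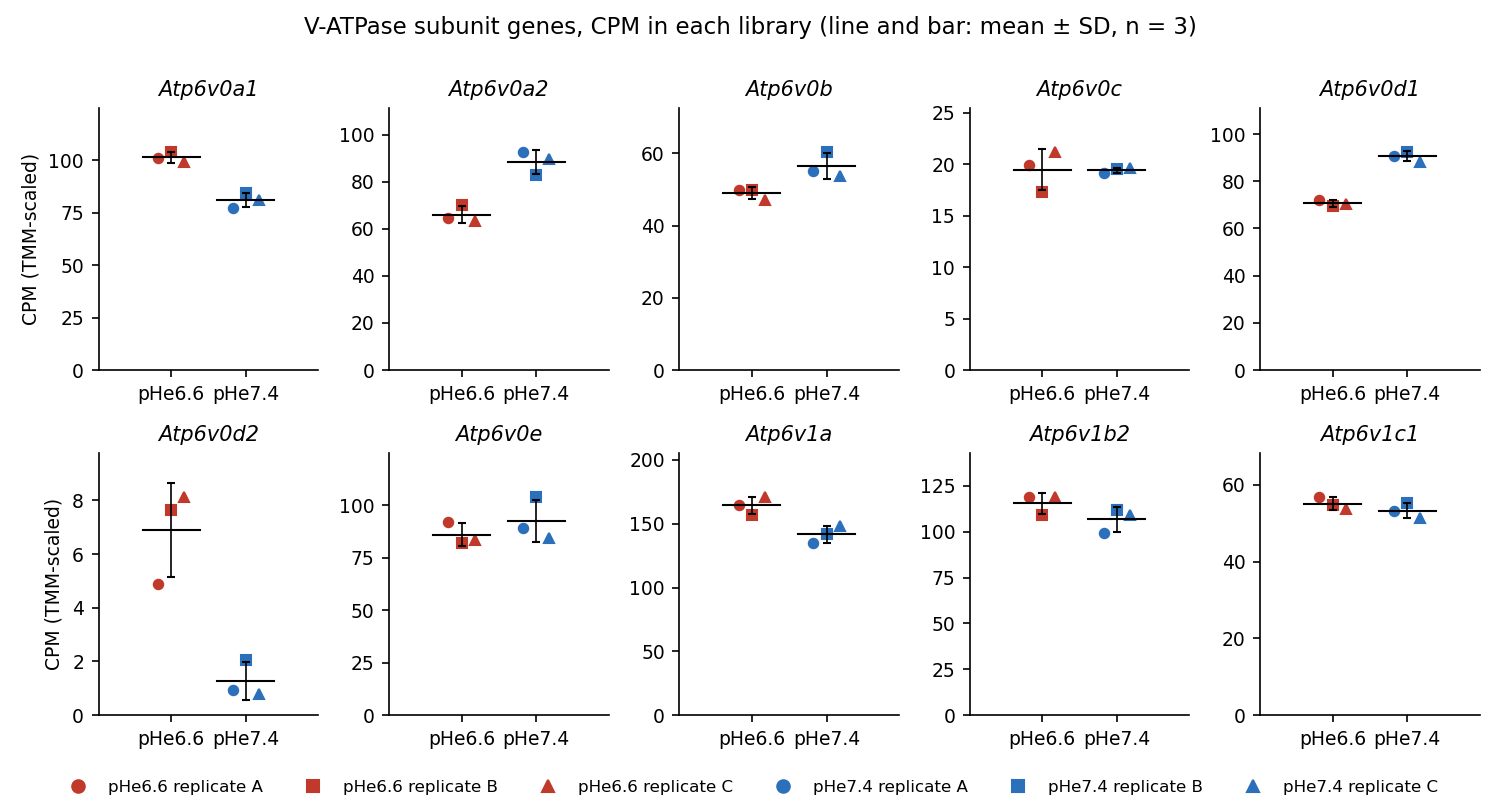
Level of each of the 10 V-ATPase subunit genes in CPM (vertical axis, starting at 0) in the 3 libraries at pHe6.6 (red) and the 3 at pHe7.4 (blue), with black lines and bars for mean ± SD (n = 3 libraries). Atp6v0d2 sits between 4.88 and 8.13 CPM at pHe6.6 and between 0.798 and 2.07 CPM at pHe7.4, while the other genes differ by much smaller steps.

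The start sites of several V-ATPase genes carry the palindrome CACGTG, the E-box read by basic helix-loop-helix factors. Its longer form TCACGTGA is the core of the CLEAR element, through which TFEB, TFE3 and MITF drive lysosomal genes in mouse and human. Promoter windows of RefSeq on GRCm38.p6, from 250 bases before to 50 bases after the start site, were at hand for 6 of the 10 genes (Atp6v0a1, Atp6v0b, Atp6v0c, Atp6v0d1, Atp6v0e and Atp6v1a). CACGTG, which reads the same on both strands, was found in 4 of these 6 genes, against 7.15% of 32851 windows over the genome. TCACGTGA, also a palindrome, which contains CACGTG and therefore overlaps it, was found in 3 of the 6, against 0.974% of all windows. Among the windows with a GC content of at least 45%, the shares were 8.3% and 1.18%. These shares count windows, while the members are counted as genes, and Atp6v0c has several windows, none with a match. The stretches around these matches are shown because they place the motif near the start of genes that went in different directions. Each is 30 bases long, read 5′ to 3′ on the strand of the gene, with the motif in capitals.
Atp6v0b, chr4:117887339-117887368, minus strand, positions -39 to -10 relative to the start site: ggtCACGTGgggtcggcgcatCACGTGcgc
Atp6v0d1, chr8:105566050-105566079, minus strand, across the start site: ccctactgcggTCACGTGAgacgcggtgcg
Atp6v0e, chr17:26676387-26676416, plus strand, across the start site: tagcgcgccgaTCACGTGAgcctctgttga
Atp6v1a, chr16:44139373-44139402, minus strand, positions -143 to -114 relative to the start site: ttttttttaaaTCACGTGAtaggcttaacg
Of the 4 genes with a match, Atp6v0b and Atp6v0d1 were higher at pHe7.4, Atp6v1a was higher at pHe6.6, and Atp6v0e did not pass. A match describes the letters of the window and is not a binding site.

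Subunit a is the large membrane protein of V0 that forms the path of the protons against the rotating ring, and its isoforms direct the pump to different membranes. Atp6v0a1 (chromosome 11, 101009452 to 101063719 on GRCm38, plus strand), which encodes the a1 isoform best known from neurons and synaptic vesicles, stood at 101, 104 and 99.1 CPM at pHe6.6 (replicates A, B and C, in this order throughout) and at 77.4, 84.4 and 81.2 CPM at pHe7.4. All 3 libraries at pHe6.6 lay above all 3 at pHe7.4. The log2 fold change was -0.32 ± 0.06 (SE, adjusted p = 0.0029), a level 1.25-fold higher at pHe6.6.

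Atp6v0a2 (chromosome 5, 124628576 to 124724455, plus strand), the isoform known from the Golgi and endosomes, went the other way. It stood at 64.5, 70.1 and 63.3 CPM at pHe6.6 and at 92.8, 82.9 and 89.9 CPM at pHe7.4. The groups did not overlap, and the level was 1.34-fold higher at pHe7.4 (log2 fold change 0.43 ± 0.07, adjusted p = 0.0018). A stretch of 9.86% of its exon bases also belongs to 4930404A12Rik on the opposite strand. That gene held 0 counts in all 6 libraries, which allows up to 3 counts in each.

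Because both genes are read in the same library, their ratio does not depend on library scaling. The log2 ratio of Atp6v0a2 to Atp6v0a1 counts was -0.64, -0.57 and -0.65 at pHe6.6 and 0.26, -0.02 and 0.15 at pHe7.4. The mean moved from -0.62 ± 0.05 (SD, n = 3) to 0.13 ± 0.14, a difference of 0.75, and the groups did not overlap. In the two-sided exact permutation test this gave p = 0.1, the smallest value that 3 against 3 libraries allow, and an adjusted p of 0.1 over the 3 ratios tested. Since each gene alone already separated the groups, in opposite directions, the ratio had to separate them too and is no independent finding. The coding sequences of both genes share 63.6% of aligned bases, and the longest run of identical bases is 23, shorter than the 75-base windows used to look for shared sequence. The a3 isoform gene Tcirg1, known from osteoclasts and picked here after its values were seen, stood at 136 ± 2.62 CPM at pHe6.6 against 130 ± 5.69 CPM at pHe7.4 and did not pass the test (log2 fold change -0.06, 95% interval -0.19 to 0.08, adjusted p = 0.44).

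Subunit d caps the ring of V0 and couples it to the central stalk of V1. Atp6v0d1 (chromosome 8, 105524465 to 105566047, minus strand) encodes its broadly used isoform d1. It stood at 72.2, 69.4 and 70.3 CPM at pHe6.6 and at 90.9, 92.5 and 88.3 CPM at pHe7.4. Replicates lay close together, with a coefficient of variation of 2.03% in the pHe6.6 and 2.3% in the pHe7.4 libraries, and the groups did not overlap. The level was 1.28-fold higher at pHe7.4 (log2 fold change 0.36 ± 0.05, adjusted p = 0.0012).

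Atp6v0d2 (chromosome 4, 19876841 to 19922605, minus strand) encodes the d2 isoform, known in mouse from osteoclasts, macrophages and dendritic cells and required there for the fusion of osteoclast precursors. Its counts were 144, 267 and 270 at pHe6.6 against 37, 65 and 27 at pHe7.4. In CPM these were 4.88, 7.66 and 8.13 at pHe6.6 and 0.932, 2.07 and 0.798 at pHe7.4. The lowest library at pHe6.6, replicate A, was above the highest at pHe7.4, replicate B. The level was 5.49-fold higher at pHe6.6 (log2 fold change -2.46 ± 0.38, 95% interval -3.36 to -1.55, adjusted p = 0.0017). The libraries also varied more for this gene than for the others, with a coefficient of variation of 25.5% in the pHe6.6 and 55% in the pHe7.4 libraries, against 1.48% to 11.1% for the other 9 genes. The log2 fold change stayed between -2.98 and -2.21 when single libraries were left out, and it passed the test in each case.

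Since Atp6v0d2 is known from macrophages, its level was set beside the 18 macrophage markers. Of these, 7 were higher at pHe6.6, Cd14 alone was higher at pHe7.4 and 10 did not pass the test. The share called was 44.4%, against 52.3% of all genes, and no marker was at 0 in any library. The 7 were Fcgr1, Fcgr3, Laptm5, Itgam, Tyrobp, Cd68 and Adgre1. Their log2 fold changes ran from -1.24 for Fcgr1 to -0.33 for Adgre1, and that of Cd14 was 1.32. Csf1r, the receptor that macrophages need to survive, stood at 43.6, 54.4 and 78 CPM at pHe6.6 against 41.4, 63.2 and 53 CPM at pHe7.4 and did not pass (log2 fold change -0.16, adjusted p = 0.61). The summed level of the 18 markers was 690, 820 and 1300 CPM at pHe6.6 against 613, 922 and 790 CPM at pHe7.4, and here the groups overlapped. The mean was 1.21 times as high at pHe6.6, against 5.45 times for Atp6v0d2. Lyz2 was the largest part of this sum, at 315 ± 124 CPM at pHe6.6 against 316 ± 82.5 CPM at pHe7.4 (log2 fold change 0.01). The median log2 fold change of the 18 markers was -0.6, so that the sum moved less than the typical marker. Per 1000 CPM of these markers, Atp6v0d2 stood at 7.08, 9.34 and 6.24 CPM at pHe6.6 and at 1.52, 2.24 and 1.01 CPM at pHe7.4, a mean 4.75 times as high at pHe6.6, with no overlap. Of 10 osteoclast markers, 7 passed the filter, and of these 3 passed the test (42.9%, against 52.3% of all genes). Ctsk, the collagen-cleaving protease cathepsin K, was higher at pHe6.6, Itgb3 was higher at pHe7.4, as was Calcr, which passed the filter only through the pHe7.4 libraries, and Ocstamp, Dcstamp and Oscar, which mark osteoclasts and their fusion, stayed under the filter, at no more than 0.554 CPM in any library. The cells in which Atp6v0d2 was expressed were not resolved in these bulk libraries.

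**Figure D2:**
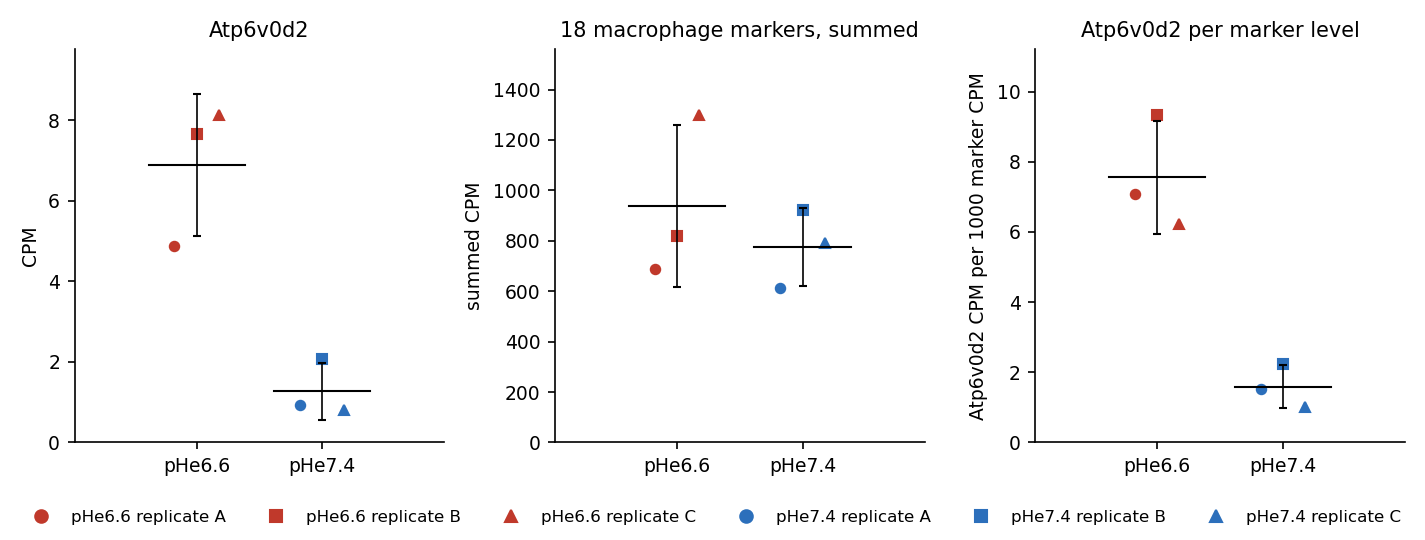
Left, Atp6v0d2 in CPM; middle, summed CPM of 18 macrophage markers; right, Atp6v0d2 CPM per 1000 CPM of these markers, each in the 3 libraries at pHe6.6 (red) and the 3 at pHe7.4 (blue), with mean ± SD and axes from 0. The summed markers overlap between the groups, with the highest value of 1300 CPM in replicate C at pHe6.6, while Atp6v0d2 and its level per marker do not overlap.

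The log2 ratio of Atp6v0d2 to Atp6v0d1 counts fell from -3.88, -3.18 and -3.11 at pHe6.6 to -6.59, -5.47 and -6.76 at pHe7.4. The means were -3.39 ± 0.43 and -6.28 ± 0.7 (SD, n = 3), a difference of -2.89, and the groups did not overlap (two-sided exact permutation p = 0.1, adjusted 0.1, the smallest possible). Here too each gene alone separated the groups, in opposite directions, so that the separation of the ratio is no independent finding. The coding sequences share 65.9% of aligned bases, with a longest identical run of 17.

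The 8 genes whose pattern over the 6 libraries was most like that of Atp6v0d2 were Ccr1, Slfn1, Gm21123, Cd300a, Itgax, Csf2rb, Gsta3 and Csf2rb2. Likeness was the root mean square difference of log2 CPM over the 6 libraries, after each gene was centred on its own mean, among 12390 genes whose log2 CPM averaged 1 or more. It ran from 0.299 for Ccr1, a chemokine receptor, to 0.389 for Csf2rb2, a receptor chain for interleukin 3. Ccr1 stood at 16, 22 and 25.9 CPM at pHe6.6 against 3.35, 6.32 and 4.52 CPM at pHe7.4, so that replicate A was the lowest library at each pHe, while for Atp6v0d2 it was the lowest at pHe6.6 and replicate C at pHe7.4. Itgax, which encodes the integrin chain CD11c, stood at 6.85, 10.4 and 10.2 CPM at pHe6.6 against 1.74, 3.37 and 2.16 CPM at pHe7.4. Csf2rb2 is nearly identical to Csf2rb, the shared receptor chain for GM-CSF, interleukin 3 and interleukin 5, and reads may have been split between both. The log2 fold changes of the 8 genes lay between -2.79 and -1.93, close to that of Atp6v0d2, which their choice by pattern implies.

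The c ring of V0 turns during pumping and is built from the proteolipids of Atp6v0c and Atp6v0b. Atp6v0b (chromosome 4, 117884326 to 117887333, minus strand), the gene of the c″ proteolipid, stood at 49.9, 49.9 and 47.2 CPM at pHe6.6 and at 55.2, 60.4 and 53.8 CPM at pHe7.4. The groups did not overlap, but the step was small, 1.15-fold higher at pHe7.4 (log2 fold change 0.2 ± 0.07, adjusted p = 0.035). The call was lost when any library other than replicate C at pHe7.4 was left out, with log2 fold changes of 0.21, 0.22 and 0.17 when replicates A, B and C of the pHe6.6 group were left out, and 0.22 and 0.16 without replicates A and B at pHe7.4 (adjusted p = 0.055 to 0.14). Of its exon bases, 11.8% overlap Gm12841 on the opposite strand, which held 0 counts in all 6 libraries.

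Atp6v0c (chromosome 17, 24163866 to 24169702, minus strand), the gene of the main ring proteolipid, stood at 19.9, 17.3 and 21.2 CPM at pHe6.6 and at 19.1, 19.5 and 19.6 CPM at pHe7.4. The groups overlapped, and the log2 fold change of 0 had a 95% interval of -0.22 to 0.21 (adjusted p = 0.98). Its value is less certain than the others, because 23.7% of the 75-base windows along its transcripts also occur in its pseudogenes Atp6v0c-ps1 and Atp6v0c-ps2. These pseudogenes held 1 to 6 and 1 to 3 counts per library.

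Atp6v0e (chromosome 17, 26663231 to 26699647, plus strand) encodes the small hydrophobic subunit e. It stood at 92.3, 82.2 and 83.5 CPM at pHe6.6 and at 89.3, 104 and 84.4 CPM at pHe7.4. The groups overlapped, with replicate B at pHe7.4 the highest (log2 fold change 0.11, 95% interval -0.11 to 0.32, adjusted p = 0.35). Its paralogue Atp6v0e2, which is best known from brain, was higher at pHe7.4, with 2.1, 4.25 and 3.62 CPM at pHe6.6 against 5.87, 8.49 and 8.19 CPM at pHe7.4 (log2 fold change 1.17 ± 0.27, adjusted p = 0.0088). The log2 ratio of Atp6v0e2 to Atp6v0e was -4.75 ± 0.62 at pHe6.6 and -3.63 ± 0.28 at pHe7.4 (SD, n = 3), a difference of 1.11 with no overlap (two-sided exact permutation p = 0.1, adjusted 0.1, the smallest possible).

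**Figure D3:**
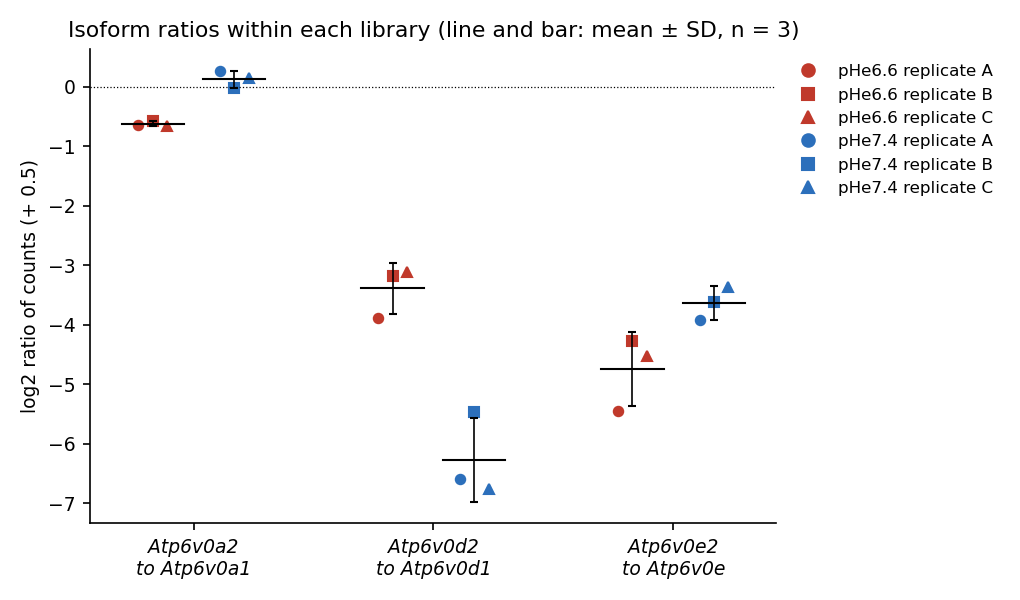
Log2 ratio of the counts of paired isoform genes (count + 0.5, vertical axis) in each library at pHe6.6 (red) and pHe7.4 (blue), with black lines and bars for mean ± SD (n = 3), and a dotted line at equal counts. The ratio of Atp6v0a2 to Atp6v0a1 lies between -0.65 and -0.57 at pHe6.6 and between -0.02 and 0.26 at pHe7.4, and none of the 3 ratios overlaps between the groups. For Atp6v0a2 to Atp6v0a1 and Atp6v0d2 to Atp6v0d1 this follows from the levels of the single genes.

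In the V1 sector, subunits A and B alternate in the ring that hydrolyses ATP, with the catalytic site carried mainly by A. Atp6v1a (chromosome 16, 44085402 to 44139705, minus strand), the gene of subunit A, stood at 165, 157 and 171 CPM at pHe6.6 and at 135, 142 and 148 CPM at pHe7.4, and the groups did not overlap. The level was 1.16-fold higher at pHe6.6 (log2 fold change -0.21 ± 0.06, adjusted p = 0.026). The call was lost without replicate A or C at pHe6.6 or replicate A at pHe7.4, where the log2 fold change was -0.22, -0.19 and -0.18 (adjusted p = 0.06, 0.089 and 0.096).

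Atp6v1b2 (chromosome 8, 69088646 to 69113711, plus strand), the gene of the broadly used isoform of subunit B, stood at 119, 109 and 119 CPM at pHe6.6 and at 99.2, 112 and 109 CPM at pHe7.4. The groups overlapped, and the difference did not pass the test (log2 fold change -0.12, 95% interval -0.28 to 0.05, adjusted p = 0.19). The kidney isoform gene Atp6v1b1 held 0 counts in 5 of 6 libraries and 1 count in replicate A at pHe7.4. Atp6v1c1 (chromosome 15, 38661933 to 38692446, plus strand), the gene of subunit C, which clamps the stators of V1 to V0 and leaves the pump when it comes apart, stood at 56.8, 54.8 and 53.6 CPM at pHe6.6 and at 53.2, 55.2 and 51.2 CPM at pHe7.4. These values overlapped (log2 fold change -0.05, 95% interval -0.19 to 0.09, adjusted p = 0.52).

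Compared per length of exon, Atp6v0d1 had the highest level of the 10 genes at both pHe, with 39.4 ± 0.798 CPM per kb at pHe6.6 and 50.5 ± 1.16 CPM per kb at pHe7.4 (SD, n = 3). At pHe6.6 it was followed by Atp6v1a (27.2 ± 1.18), Atp6v0b (23.9 ± 0.744), Atp6v0e (23.2 ± 1.48), Atp6v1b2 (21.8 ± 1.12), Atp6v0a1 (15.4 ± 0.36), Atp6v1c1 (9.83 ± 0.283), Atp6v0a2 (9.81 ± 0.542), Atp6v0c (5.75 ± 0.575) and Atp6v0d2 (2.54 ± 0.647 CPM per kb). In this order Atp6v0b and Atp6v0e, Atp6v0e and Atp6v1b2, and Atp6v1c1 and Atp6v0a2 lay within their SDs of each other. At pHe7.4 Atp6v0a2, with 13.2 ± 0.754 CPM per kb, and Atp6v0a1, with 12.4 ± 0.531 CPM per kb, did not differ beyond their spread, and Atp6v0d2 was down to 0.466 ± 0.256 CPM per kb. The order depended on the length used. Per kb of the longest coding transcript, Atp6v0b stood at 49 CPM per kb at pHe6.6, above Atp6v0d1 at 43.3, and at pHe7.4 both lay within the spread of Atp6v0b, at 56.5 and 55.6 CPM per kb, while Atp6v0a1 stayed above Atp6v0a2 at pHe7.4, with 20.2 against 16.6 CPM per kb. Atp6v0c, whose value is less certain because of its pseudogenes, also changed place. Per kb of coding transcript it stood at 16.4 CPM per kb at pHe6.6, above Atp6v0a2 at 12.3. Atp6v0d2 was the lowest of the 10 with either length.

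**Figure D4:**
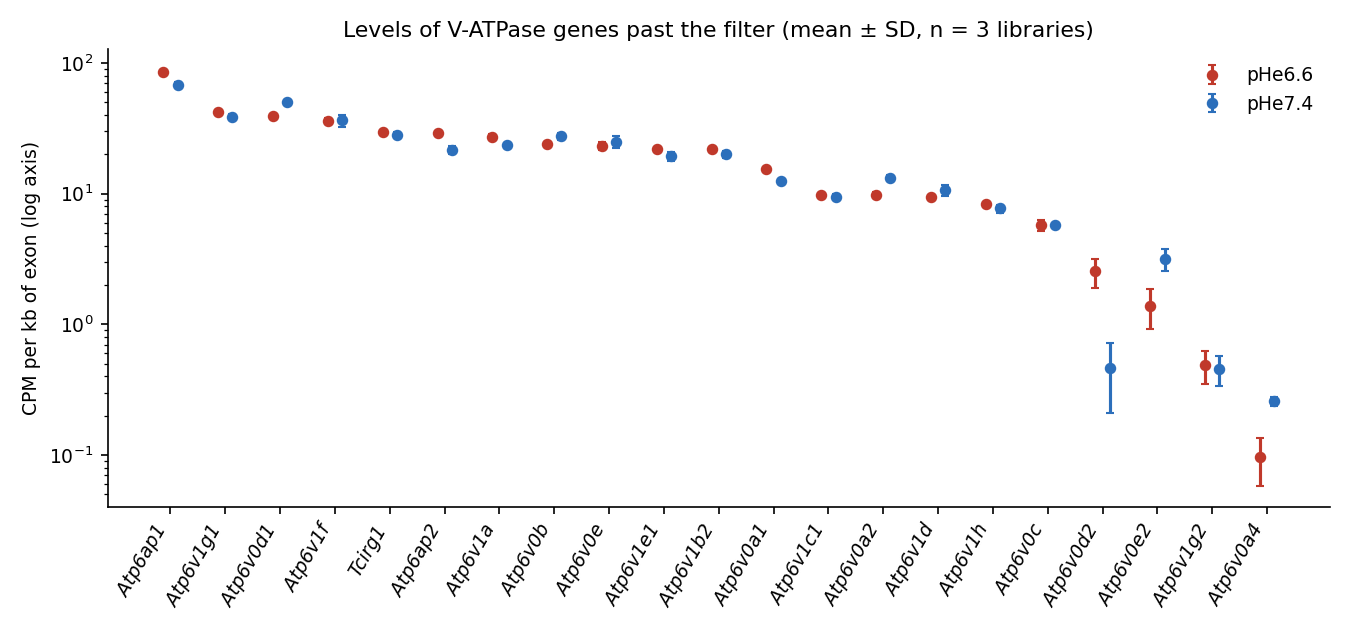
Level per kb of exon (log axis) of the 10 genes and of the other V-ATPase subunit and accessory genes past the filter, as mean ± SD over 3 libraries at pHe6.6 (red) and pHe7.4 (blue), ordered by the level at pHe6.6. Atp6v0d2 drops from 2.54 to 0.466 CPM per kb while Atp6v0d1, the isoform of the same subunit, goes from 39.4 to 50.5.

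Of 16 further genes for subunits and accessory proteins of the pump, 11 passed the filter, and of these 4 passed the test, 2 in each direction (36.4%, against 52.3% of all genes). The genes higher at pHe7.4 were Atp6v0e2, given above, and Atp6v0a4, the a4 isoform known from acid-secreting cells of the kidney. Atp6v0a4 held only 9, 24 and 15 counts at pHe6.6 against 53, 37 and 46 at pHe7.4, or 0.305 to 0.688 CPM against 1.18 to 1.36 CPM (log2 fold change 1.4 ± 0.32, adjusted p = 0.0085). It entered the test only through the pHe7.4 libraries, where it is high, so that its call is no independent finding. The genes higher at pHe6.6 were both accessory subunits. Atp6ap1, whose protein is a glycosylated part of V0, stood at 267, 252 and 259 CPM at pHe6.6 and at 208, 213 and 192 CPM at pHe7.4 (log2 fold change -0.35 ± 0.07, adjusted p = 0.0035). Atp6ap2, also called the prorenin receptor, stood at 76.6, 77.3 and 74.8 CPM at pHe6.6 and at 53.9, 61.4 and 55.2 CPM at pHe7.4 (log2 fold change -0.42 ± 0.07, adjusted p = 0.0015). In both accessory genes the groups lay apart, as in 63.2% of all genes tested.

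The 5 subunit genes under the filter were Atp6v1b1, given above, Atp6v1c2, Atp6v1e2, Atp6v1g3 and Rnasek. Atp6v1c2, the isoform of subunit C known from kidney and lung, held 1, 5 and 0 counts at pHe6.6 against 24, 13 and 13 at pHe7.4, and was not tested. Atp6v1e2, known from testis, held 2 counts in replicate B at pHe7.4 and 0 in the other libraries. Atp6v1g3 held 0 counts in all 6, and a count of 0 leaves room for at most 0.0756 to 0.102 CPM. Rnasek held 10 to 18 counts, but 90.5% of its 75-base windows also lie in the overlapping gene Gm21988, so that its count is uncertain. Beside Atp6v0a4, Atp6v0e2 and Atp6v1c2 stand the markers of other cell types. Of 15 epithelial, endothelial and pancreatic parenchymal markers, 13 passed the filter. Those higher at pHe7.4 were the epithelial keratin Krt7 and the endothelial genes Pecam1, Cdh5 and Kdr, or 30.8% of the 13 against 52.3% of all genes. None was higher at pHe6.6, and the epithelial genes Epcam, Cdh1 and Cftr did not pass (adjusted p = 0.066, 0.054 and 0.46). Epcam stood at 27.9 ± 19.3 CPM at pHe6.6 against 78.1 ± 15.1 CPM at pHe7.4, and Cdh1 at 48.5 ± 32.7 against 153 ± 39.6 CPM. In Epcam and Cdh1 the groups did not overlap, while in Cftr they did. The summed level of the 15 markers was 67.5 to 310 CPM at pHe6.6 against 458 to 708 CPM at pHe7.4. Of the 14 genes that mark mesothelium, 9 were higher at pHe7.4 and Cldn15 was lower there (71.4% called, against 52.3% of all genes). Replicate A at pHe6.6 was lowest in both marker sums and in Atp6v0e2 and Atp6v0a4. Their part in the result was not tested.

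Of 11 genes for the assembly and regulation of the pump, 10 passed the filter and 5 the test (50%, against 52.3% of all genes). Tmem199, an assembly factor in the endoplasmic reticulum, was higher at pHe7.4, with 16.5, 16 and 15.1 CPM at pHe6.6 against 19.8, 19.6 and 18.5 CPM at pHe7.4 (log2 fold change 0.28 ± 0.08, adjusted p = 0.018). The 4 genes higher at pHe6.6 were Ncoa7, Rogdi, Dmxl2 and Wdr7, and 5 did not pass. Ncoa7, which encodes a TLDc-domain protein that binds V1, showed the largest change of the 10 tested, at 64.2, 54.6 and 66.1 CPM at pHe6.6 against 29.8, 26.8 and 32.3 CPM at pHe7.4 (log2 fold change -1.06 ± 0.1, adjusted p = 0.00014). Rogdi, Dmxl2 and Wdr7 encode parts of the rabconnectin complex, the mammalian counterpart of the RAVE complex that joins V1 to V0 in yeast. Rogdi stood at 7.71 to 7.89 CPM at pHe6.6 against 5.47 to 5.82 CPM at pHe7.4 (log2 fold change -0.47, adjusted p = 0.0078). Dmxl2 went from 11.3 ± 1.45 to 8.18 ± 0.898 CPM (log2 fold change -0.47, adjusted p = 0.021) and Wdr7 from 47 ± 1.06 to 41 ± 2.87 CPM (log2 fold change -0.2, adjusted p = 0.048). The call of Wdr7 was lost under 11 of 14 alternative settings and that of Dmxl2 under 5. That of Tmem199 was lost under 3, among them without replicate C at pHe6.6 (0.24, adjusted p = 0.078) and without replicate A at pHe7.4 (0.27, adjusted p = 0.058).

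**Figure D5:**
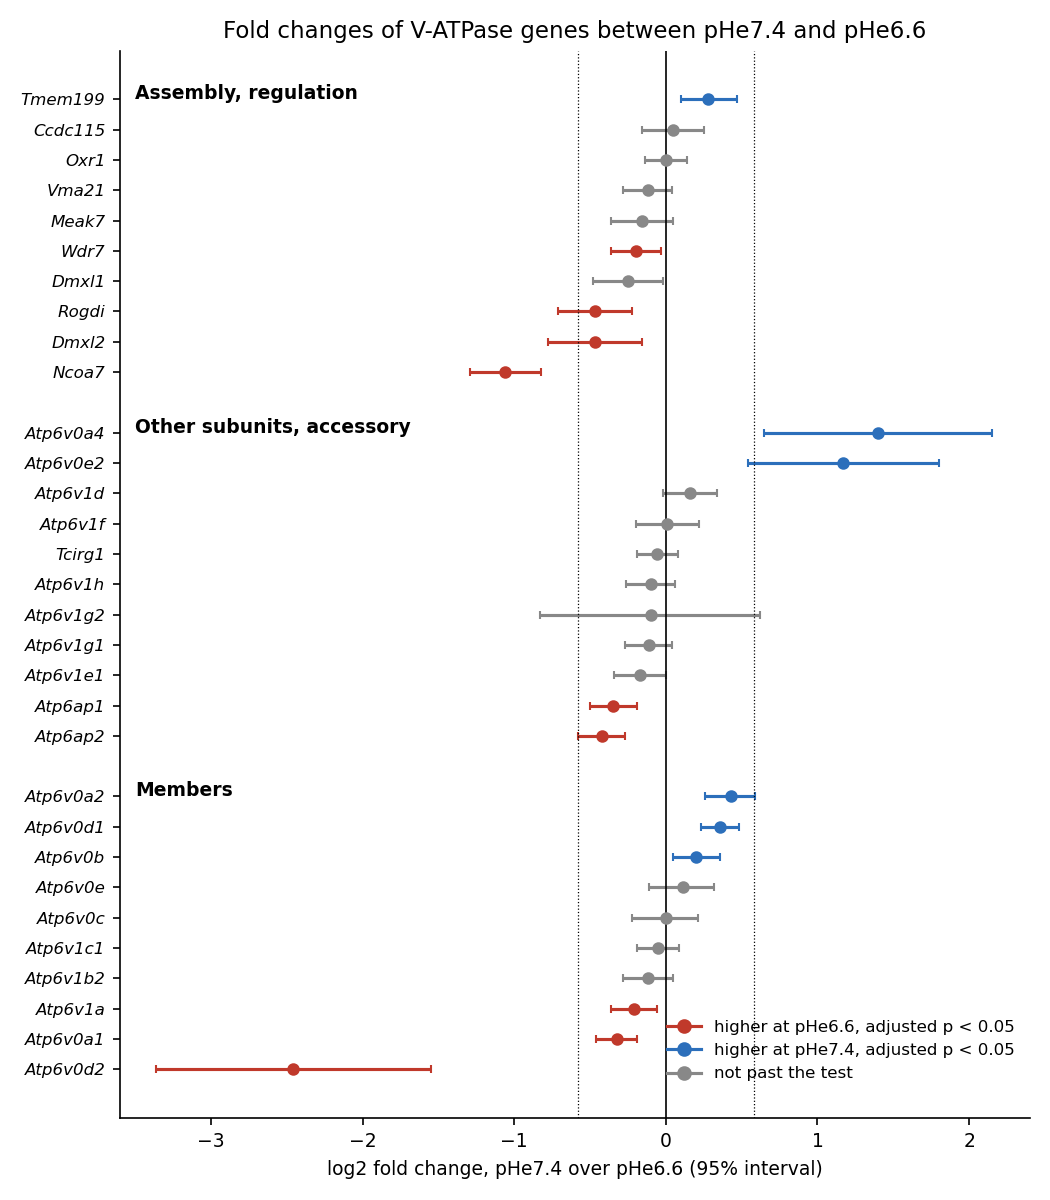
Log2 fold change (pHe7.4 over pHe6.6) with its 95% interval for the 10 genes (bottom), the other subunit and accessory genes past the filter (middle) and the assembly and regulation genes (top). Red marks genes higher at pHe6.6 and blue genes higher at pHe7.4 (adjusted p under 0.05), grey marks genes that did not pass, and the dotted lines stand at 0.58 in either direction. Atp6v0d2 at -2.46 lies far from the other 9 genes, which range from -0.32 to 0.43.

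The pump sits on the lysosome beside the Ragulator-Rag complex, through which amino acids activate mTORC1, and its genes are targets of the MiT/TFE factors. Of 17 genes of this signalling list, all past the filter, 9 were higher at pHe6.6, 3 were higher at pHe7.4 and 5 did not pass (70.6% called, against 52.3% of all genes), with a median log2 fold change of -0.24. The smallest adjusted p among those higher at pHe6.6 belonged to Mcoln1, a lysosomal calcium channel, and to Mitf, one of the MiT/TFE factors. Mcoln1 stood at 44.1, 39.2 and 45.3 CPM at pHe6.6 and at 28, 26.1 and 27.7 CPM at pHe7.4 (log2 fold change -0.65, adjusted p = 4e-04). Mitf stood at 19.6, 16 and 19.3 CPM at pHe6.6 and at 6.62, 9.41 and 9.08 CPM at pHe7.4 (log2 fold change -1.13, adjusted p = 0.00076). Among those higher at pHe7.4 they belonged to Tfe3, a second MiT/TFE factor (72.2 ± 1.65 against 84 ± 3.01 CPM, log2 fold change 0.22, adjusted p = 0.014), and to the Rag GTPase gene Rragb (0.464 ± 0.151 against 1.37 ± 0.574 CPM, log2 fold change 1.53, adjusted p = 0.014). Rragb passed the filter only through the pHe7.4 libraries, and the call of Tfe3 was lost without replicate A or C at pHe6.6 or replicate A at pHe7.4, at log2 fold changes of 0.19, 0.21 and 0.19 (adjusted p = 0.057, 0.056 and 0.051). Tfeb, picked here after its values were seen, did not pass (log2 fold change 0.05, 95% interval -0.33 to 0.43, adjusted p = 0.82).

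Proton pumping builds up a voltage that counterions relieve, chiefly through the chloride-proton exchangers of the Clcn family. Of 15 genes for lysosomal membrane proteins and counterion transport, all past the filter, 9 were higher at pHe6.6, 3 were higher at pHe7.4 and 3 did not pass (80% called, against 52.3% of all genes), with a median log2 fold change of -0.26. Npc2, a cholesterol carrier of the lysosome, stood at 2010, 1610 and 1810 CPM at pHe6.6 and at 673, 763 and 670 CPM at pHe7.4 (log2 fold change -1.37, adjusted p = 6.4e-05). Lamp2, a major protein of the lysosomal membrane, stood at 914, 739 and 863 CPM at pHe6.6 and at 475, 466 and 499 CPM at pHe7.4 (log2 fold change -0.8, adjusted p = 0.00037). The exchanger genes Clcn5 and Clcn3 were higher at pHe7.4, with 37.3 ± 5.46 against 67.8 ± 7.29 CPM (log2 fold change 0.86, adjusted p = 0.0011) and 21.5 ± 4.18 against 37.4 ± 2.67 CPM (log2 fold change 0.8, adjusted p = 0.003). In both, replicate A was the lowest library at pHe6.6. Clcn7 and Clcn6, exchanger genes of the same list picked here after their values were seen, went the other way. Both were higher at pHe6.6, with log2 fold changes of -0.36 (adjusted p = 0.0023) and -0.48 (adjusted p = 0.011).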

How the data were processed

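RNA of PSCs (120 h of culture, 3 libraries for each pHe) was converted to poly(A)-enriched, strand-specific libraries. Per the submitters' processing notes, the authors aligned reads to mm10 with HISAT2 2.2.1 and counted them with featureCounts 2.0.1; the annotation release and the strand setting of the counting are not given in the sources used here. The deposited values are raw counts per Ensembl gene. A further deposited table holds the authors' limma 3.50.1 comparison (fold changes, p-values); only its gene identifiers and names were used.

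Symbols came from that table for 14233 genes and from GENCODE vM21 for 35093; 345 had none. Positions are those of GENCODE vM21 (GRCm38). The groups were compared by edgeR 4.0.16 under R 4.3.3 (TMM, robust quasi-likelihood, no covariate), for genes that reached 0.5 CPM in 2 or more libraries. Each standard error is the size of the log2 fold change over the root of F. Alternatives were other scalings, filters and tools (DESeq2 1.42.0, limma-voom 3.58.1), a replicate term and leaving out each library. Scripts were tested on simulated data. A floor of 3 counts covers counting error only. No pair of libraries agreed within sampling noise (chi-square per degree of freedom of 15.3 to 50.8).

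The members and lists were chosen with earlier results of these data known. Named were all 10 genes; of the subunit and assembly lists, genes past the test and subunit genes under the filter; of the lysosomal lists, the 2 genes with the lowest adjusted p per direction; and the 8 genes most like Atp6v0d2. Others are named as chosen afterwards, or are markers.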

Additional observations from a re-analysis of the deposited data

How the results depend on the processing

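The count of subunit genes past the test was 6, 3 in each direction, beside 7955 of all 15197 genes tested. The count was 6 with DESeq2's size factors or upper-quartile factors in edgeR, in the DESeq2 and limma-voom fits and with a filter of 1 CPM in 3 or more libraries, and 5 without a filter, where Atp6v0b was lost. Of all 15197 genes, 7954 to 8046 passed under these factors and fits. With the 1 CPM filter 7561 of 13665 genes passed, and without a filter 7633 of 27149. Leaving out single libraries gave 4 to 6 subunit genes, while calls over all genes ran from 6273 of 15090 to 7764 of 15114. Under limma-voom's treat, which tests against a fold change of 1.5, 1 gene of the 10 passed (Atp6v0d2), so that the counts were 1 toward pHe6.6 and 0 toward pHe7.4, since treat asks for a larger change by construction. Of all 15197 genes, 1745 passed treat. Atp6v0d2 kept its direction and its call under all 14 alternatives, at -2.98 to -2.21. The median over the 10 genes ran from -0.067 to 0.005 and thus crossed 0. The isoform differences kept their signs under the other pseudocounts and without single libraries, at 0.68 to 0.82 for Atp6v0a2 to Atp6v0a1, -3.29 to -2.64 for Atp6v0d2 to Atp6v0d1 and 0.76 to 1.35 for Atp6v0e2 to Atp6v0e. No gene followed under the alternatives passed the test in opposite directions. Cell type markers, genes picked afterwards and subunit genes under the filter were not followed there.

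Replicates of the same letter share only that letter in the labels. Their deviations from the group means correlated at -0.0628, -0.000373 and 0.228 for A, B and C, and 1 of 3 libraries in each group correlated best with its own letter. With the replicate block 7408 genes passed in place of 7955, the same 6 subunit genes were called, and the log2 fold change of Atp6v0d2 was -2.5 (adjusted p = 0.0025). Depth limits the genes under the filter, Atp6v0a4 and, at pHe7.4, Atp6v0d2, whose lowest library held 27 counts. For Rnasek the windows it shares with Gm21988 leave the count uncertain at any depth.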

Other observations

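The summed macrophage markers were highest in replicate C at pHe6.6. Without that library the log2 fold change of Atp6v0d2 was -2.33 (adjusted p = 0.008), and 4 of the 10 subunit genes passed edgeR's test. Calls fell among all genes as well, to 6273 of 15090 tested, against 7955 of 15197 with all libraries.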
